A study of Mus musculus with 12 samples.

Results

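The genes described here encode the poly(A)-binding proteins of the mouse oocyte and the small proteins that bind them. They are the cytoplasmic poly(A)-binding protein genes Pabpc1, Pabpc1l and Pabpc4, the nuclear-type genes Pabpn1 and Pabpn1l, and the interactor genes Paip1, Paip2 and Paip2b. The 8 genes were taken by gene symbol, and all 8 are among the 22801 genes with values at metaphase II (MII, the mature egg). Only 2 of them, Pabpc1 and Pabpn1l, are among the 3475 genes with values at the germinal vesicle stage (GV, before meiotic maturation). The authors' GV table holds no gene outside an unadjusted p of 0.05 and a 2-fold change, so the other 6 were not selected there and have no value at GV. The study asks how RNA levels differ in oocytes that lack Lsm14b, an RNA-binding protein of cytoplasmic ribonucleoprotein particles. Each of the 12 libraries came from a tube of 15 oocytes from C57BL/6 mice at postnatal day 35, with the ovary given as the source. Conditional knockout oocytes (CKO) had the genotype Lsm14bfl/fl-Gdf9-Cre and control oocytes (WT) the genotype Lsm14bfl/fl, so both carry the floxed gene and differ by the Cre transgene. The Gdf9 promoter drives Cre in oocytes and not in the follicle's somatic cells. Each of the 4 groups had 3 replicate libraries, numbered 1, 2 and 4 for CKO and WT at GV, 2, 3 and 4 for CKO at MII, and 1, 2 and 3 for WT at MII.

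Poly(A)-binding proteins coat the 3′ tail of mRNAs, protect it and help the capped 5′ end to recruit ribosomes. A fully grown oocyte is transcriptionally silent, so maturation relies on stored mRNAs whose tails are shortened or lengthened in the cytoplasm. Pabpc1 is the general cytoplasmic protein of somatic cells. Pabpc1l, also called ePAB, is the embryonic form that predominates in oocytes and early embryos, and female mice without it are infertile. Pabpc4 is a further cytoplasmic form. Pabpn1 binds poly(A) in the nucleus and controls tail length during synthesis, while Pabpn1l is a related protein of oocytes and early embryos that takes part in the decay of maternal mRNAs. Paip1 binds cytoplasmic poly(A)-binding protein and stimulates translation. Paip2 and Paip2b bind the same protein, displace it from poly(A) and repress translation.

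The cytoplasmic genes differ in their own 5′ leaders, and these stretches are shown because poly(A)-binding protein is known in mammalian cells to bind an A-rich stretch in the leader of its own mRNA. In the GENCODE M21 transcripts (GRCm38), the 30-base window of the 5′ leader richest in A, with every A in capitals, was as follows.
Pabpc1: gAAAAAAcccAAAAAAAAtttAcAAAAAAA
Pabpc4: gAAAAAAAAAAgcAAAAgggAAAAAAAgAA
Pabpc1l: tgctggcccgcttctgggtgccctgcgcAt
The Pabpc1 window holds 22 A and the Pabpc4 window 23, while the Pabpc1l window, from an annotated leader of 31 bases, holds 1. The annotated leaders of Pabpc1 and Pabpc4 are 467 and 704 bases, so many more windows were searched in them. The counts are not matched for leader length. Of 19292 principal transcripts with a leader of at least 30 bases, 1.86% hold a window with 20 or more A. This is a description of the annotated letters and not a measured binding site.

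Reads must tell the cytoplasmic paralogues apart. Over the whole coding sequence, identity with Pabpc1 was 63.8% for Pabpc1l, 68.9% for Pabpc4 and 81.3% for Pabpc6, an intronless relative of Pabpc1, and identity of Pabpn1l with Pabpn1 was 54.0%. No 75-base window of the Pabpc1l, Pabpn1l, Paip1, Paip2 or Paip2b transcript occurred in a GENCODE M21 transcript of another gene. Such windows made up 11.2% of the Pabpc1 transcript, shared with the pseudogenes Gm16580 and Gm8276, 61.9% of Pabpc4, shared mostly with the pseudogene Gm10110, and 60.5% of Pabpn1, all shared with the overlapping gene Gm20521. The values of Pabpc4 and Pabpn1 are therefore uncertain in how shared reads were assigned. Gm16580 held at most 1.22% of the Pabpc1 reads in any library at MII. Annotated genes on the opposite strand overlap Pabpn1l (Gm20388), Paip2 (Slc23a1) and Pabpc4 (Gm12900), and the strand setting of the counting is not given in the sources used here.

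The 3′ ends are shown because cytoplasmic lengthening of tails in oocytes uses the polyadenylation signal together with a U-rich element. The last 30 bases up to and including the signal, with the signal in capitals, read as follows for both genes that changed and for the oocyte form of Pabpc1.
Pabpc1: tttggattataaaattcttgctttAATAAA
Pabpn1l: tgtgttaatagtagaatgtaaattATTAAA
Pabpc1l: cctgctgatcattttgctttatatATTAAA
Neither TTTTAT nor TTTTAAT, searched on the mRNA strand, lies within 100 bases before the signal in these transcripts or in those of Pabpc4, Paip1 and Paip2b. One of those letters was found there in 17.4% of 13715 principal transcripts with a 3′ untranslated region of at least 150 bases and a signal in their last 50 bases. The annotated Pabpn1 transcript had no signal in its last 50 bases. Its 3′ untranslated region is 113 bases, and the transcript is 1030 bases against merged exons of 3035. The annotated end may therefore not be the end of the mRNA in oocytes.

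The genotype labels held for the targeted gene, since Lsm14b at MII averaged 908 ± 80.9 normalized counts in CKO and 11051 ± 524 in WT (SD, n = 3 each). The values are reads divided by a size factor for each library and are called normalized counts here. All 10 oocyte markers had reads in every MII library, with summed levels of 10998 to 13205 per 1000000 reads in CKO and 10303 to 11103 in WT. The reads behind the MII values came to 23077585 to 40530314 per library in CKO and 88494525 to 124872889 in WT, and the depth at GV is unknown. WT replicate 3 at MII stood apart, since its values over all genes correlated with those of the other 5 libraries at Spearman's rho of 0.847 to 0.877, against 0.899 to 0.940 among those 5. These correlations are across genes, which are not independent replicates. A single entry, CT010467.1, held 24.3% of the reads in WT replicate 3, against 6.56% to 11.8% in the other 5 libraries. In these pooled samples, fewer cells of a type and less RNA per cell cannot be told apart.

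At GV and at MII, all CKO libraries held more Pabpc1 mRNA than any WT library, and less Pabpn1l mRNA. Both genes were called at GV from the authors' deposited table, where a call is taken here as an adjusted p under 0.05 with over 2-fold. The authors' own marks are wider, since Paip2 at MII is marked up at an adjusted p of 0.155. Calls by the rule used here made up 12.9% of the 21462 genes that the authors' adjusted p-values at GV imply, 4.96% higher in CKO and 7.89% lower. At MII, limma called 2 of the 8 genes, these same 2, at an adjusted p under 0.05, and 1.51% of 20388 genes tested, 0.52% higher in CKO and 0.991% lower. Without WT replicate 3 it again called these 2, and 4.37% of all genes. In the authors' deposited table at MII the same 2 of the 8 passed an adjusted p of 0.05 with over 2-fold, as did 10.5% of 16042 genes. An unadjusted p under 0.05 was found for 4 of the 8 and for 16% of all genes. The genotypes' libraries did not overlap at MII for 4 of the 8 genes, Pabpc1, Pabpc4 and Paip2 (higher in CKO) and Pabpn1l (lower), and for 22.4% of all genes tested (10.4% higher in CKO and 12% lower). The median log2 difference at MII was 0.53 over the 8 genes and -0.11 over all genes tested.

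**Figure D1:**
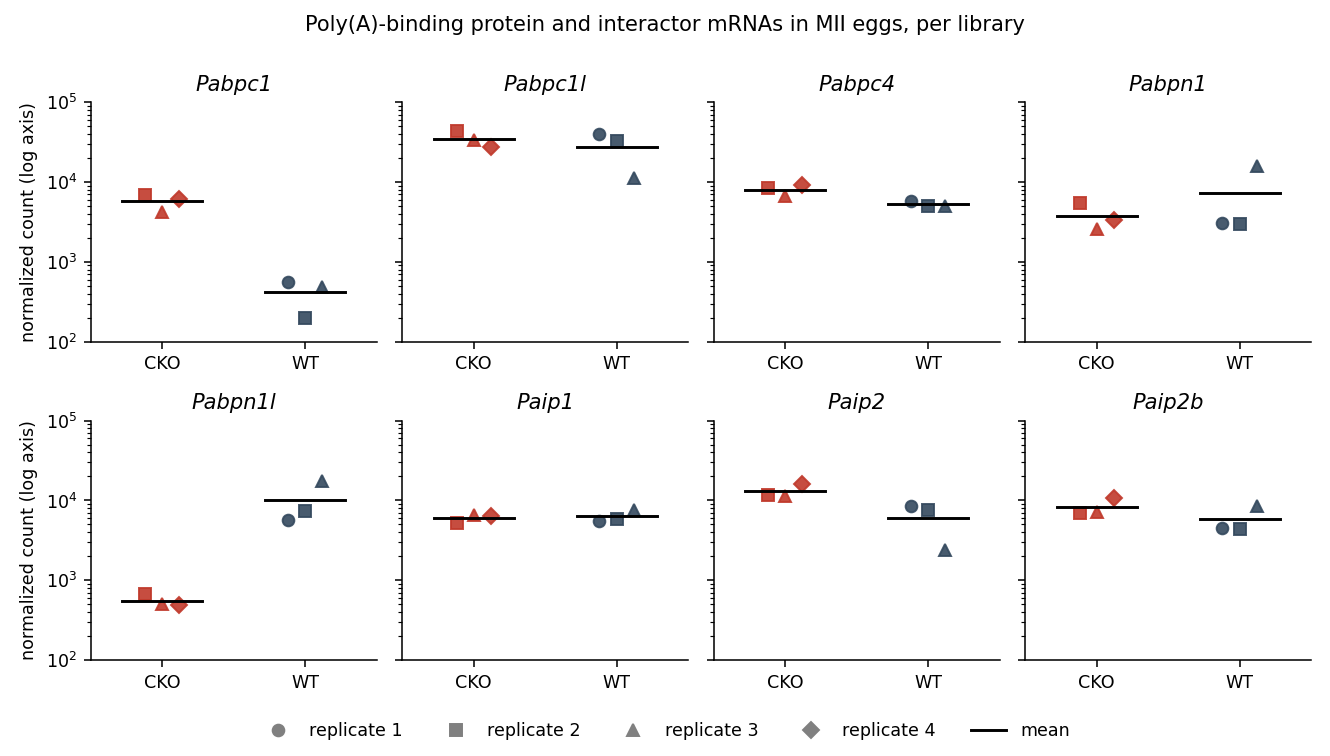
Normalized counts (log axis) of the 8 genes in each MII library, with CKO in red and WT in dark blue; symbols mark replicate numbers and bars the mean of 3 libraries. CKO libraries lie above all WT libraries for Pabpc1, Pabpc4 and Paip2 and below them for Pabpn1l, and WT replicate 3 (triangle) lies away from the other WT libraries for Pabpc1l, Pabpn1, Pabpn1l, Paip2 and Paip2b.

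Pabpc1, the general cytoplasmic poly(A)-binding protein gene (GRCm38 chromosome 15, 36595661 to 36609668, minus strand), was the member that rose. At GV it was at 21178, 20245 and 25409 normalized counts in CKO replicates 1, 2 and 4, against 3669, 1683 and 2264 in WT replicates 1, 2 and 4. All 3 CKO libraries were high and close to each other, and the lowest of them was 5.52 times the highest WT library. The authors' deposited table gave a log2 fold change of 3.13 (SE 0.26, adjusted p = 3.66e-30). From the libraries, the difference of mean log2(normalized count + 1) at GV was 3.20 (SE 0.34, exact two-sided permutation p = 0.1, the smallest that 3 against 3 libraries can give). A gene has GV values only if it was selected on these same libraries, so this p adds no separate support.

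At MII, Pabpc1 was at 6982, 4183 and 6219 normalized counts in CKO replicates 2, 3 and 4, against 561, 196 and 484 in WT replicates 1, 2 and 3. The means were 5794 ± 1447 in CKO and 414 ± 192 in WT (SD, n = 3 each), a ratio of 14.0. The genotypes were again far apart, and here WT replicate 3 lay between the other WT libraries. The limma log2 difference was 3.91 (SE 0.45, 95% interval 2.91 to 4.91, adjusted p = 0.00912). Leaving out WT replicate 3 gave 4.09, with an adjusted p of 0.0384. Limma lost the call when CKO replicate 2, 3 or 4 or WT replicate 1 or 2 was left out, with log2 differences of 3.44 to 4.20 and adjusted p of 0.0636 to 0.160, fits in which it called no gene at all and 2441 to 3007 genes had an unadjusted p under 0.05. The values behind these means came from 1652 to 5071 Pabpc1 reads in CKO libraries and 328 to 952 in the deeper WT libraries.

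Because Pabpc1 is abundant in somatic cells, the markers of follicle cells are given beside it. The 17 cumulus and granulosa markers summed to 55.0 to 81.5 per 1000000 reads in CKO and 48.0 to 81.4 in WT at MII. Of these, 3 had reads in every library and 6, Foxl2, Amhr2, Ptx3, Tnfaip6, Areg and Ereg, have no row at MII. The summed levels of the genotypes overlapped, with Cyp19a1 at 48.0 in WT replicate 3 against 6.07 to 18.6 in the other 5 libraries. For 4 of the 11 with a row, all CKO libraries lay above all WT libraries, and for none below. Among the oocyte markers this held for 4 of 10, with 1 below. Among all genes tested it held for 10.4%, with 12% below. The 4 cumulus and granulosa markers were Nr5a2, Fshr, Inhba and Ptgs2. Nr5a2 was at 41.2, 42.3 and 53.5 per 1000000 reads in CKO replicates 2, 3 and 4, against 28.7, 32.1 and 28.6 in WT replicates 1, 2 and 3. Fshr, the receptor of follicle-stimulating hormone, was at 2.81, 1.65 and 1.70 in CKO and 0.623, 0.0904 and 0 in WT. Inhba was at 0.173 to 0.695 in CKO and 0 to 0.107 in WT, and Ptgs2 at 0.347 to 2.99 in CKO and 0 to 0.140 in WT. The lowest of these levels rest on few reads. Others of the list went the other way. The limma log2 differences were -3.22 for Has2, -1.63 for Amh, -1.37 for Inha and -0.97 for Cyp19a1. The first 3 of these also rest on few reads. Has2 was at 0 in CKO and 0 to 0.505 per 1000000 reads in WT. Amh was at 0.542 in WT replicate 2 and at 0 in the other libraries. Inha was at 0 to 0.206 in CKO and 0 to 0.384 in WT. The genotypes overlapped for all of these, and the high Cyp19a1 value was that of WT replicate 3. Those of Gja1 and Kitl were 0.07 and 0.51. Limma called none of the 10 cumulus and granulosa markers tested, with Fshr, Inhba and Ptgs2 at an unadjusted p under 0.05. The part of these markers in the Pabpc1 result was not tested. None of the 17 was listed at GV. The 11 theca, stroma and endothelium markers summed to 73.9 to 84.1 in CKO and 58.7 to 91.4 in WT, mostly Pecam1, with 3 that have no row. For 2 of the 8 with a row, Kdr and Tie1, all CKO libraries lay below all WT libraries, and for none above. Tie1 was at 2.73 to 5.33 per 1000000 reads in CKO and 8.43 to 12.8 in WT. Kdr was at 0 to 1.16 in CKO and 1.93 to 3.37 in WT. Limma called none of the 7 tested. The 9 blood and immune markers summed to 3.63 to 3.73 in CKO and 17.5 to 35.3 in WT, with 5 that have no row and C1qb holding most of the sum, which limma called lower in CKO (log2 difference -3.32, adjusted p = 0.0128). For GV, 4 of the theca, stroma and endothelium markers and C1qb were called lower in CKO in the authors' deposited table, and Cd68 and Zscan4d higher. The 7 sperm and early embryo markers summed to 39.5 to 102 in CKO and 11.3 to 39.9 in WT, with Zscan4d the largest in every CKO library and 4 that have no row. The part of these other lists in the results was not tested.

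Pabpn1l, the oocyte and embryo relative of the nuclear poly(A)-binding protein (chromosome 8, 122619471 to 122622739, minus strand), was the member that fell. At GV it was at 1561, 2507 and 2631 normalized counts in CKO replicates 1, 2 and 4, against 23880, 26302 and 26259 in WT replicates 1, 2 and 4. The WT libraries were alike, and the lowest of them was 9.08 times the highest CKO library. The authors' deposited table gave a log2 fold change of -3.51 (SE 0.20, adjusted p = 3.83e-63), and the difference of mean log2 values was -3.55 (SE 0.24, exact two-sided permutation p = 0.1, the smallest possible). As for Pabpc1, the gene was selected on these same libraries, so the permutation p adds no separate support.

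At MII, Pabpn1l was at 672, 509 and 483 normalized counts in CKO replicates 2, 3 and 4, against 5749, 7355 and 17513 in WT replicates 1, 2 and 3. The CKO libraries were uniform, while WT replicate 3 was 2.67 times the mean of the other 2 WT libraries. The CKO mean was 5.44% of the WT mean with all libraries and 8.47% of it without WT replicate 3. At GV the CKO mean was 8.76% of the WT mean. The limma log2 difference was -4.04 (SE 0.43, 95% interval -4.99 to -3.09, adjusted p = 0.00796). Leaving out WT replicate 3 gave -3.56, with an adjusted p of 0.0346. The call was lost without CKO replicate 2, 3 or 4 or WT replicate 1 or 2, when the adjusted p was 0.0989 to 0.157 with a log2 difference of -4.37 to -3.95. CKO libraries held 201 to 488 Pabpn1l reads, so the remaining signal was above a count of 0 in each.

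**Figure D2:**
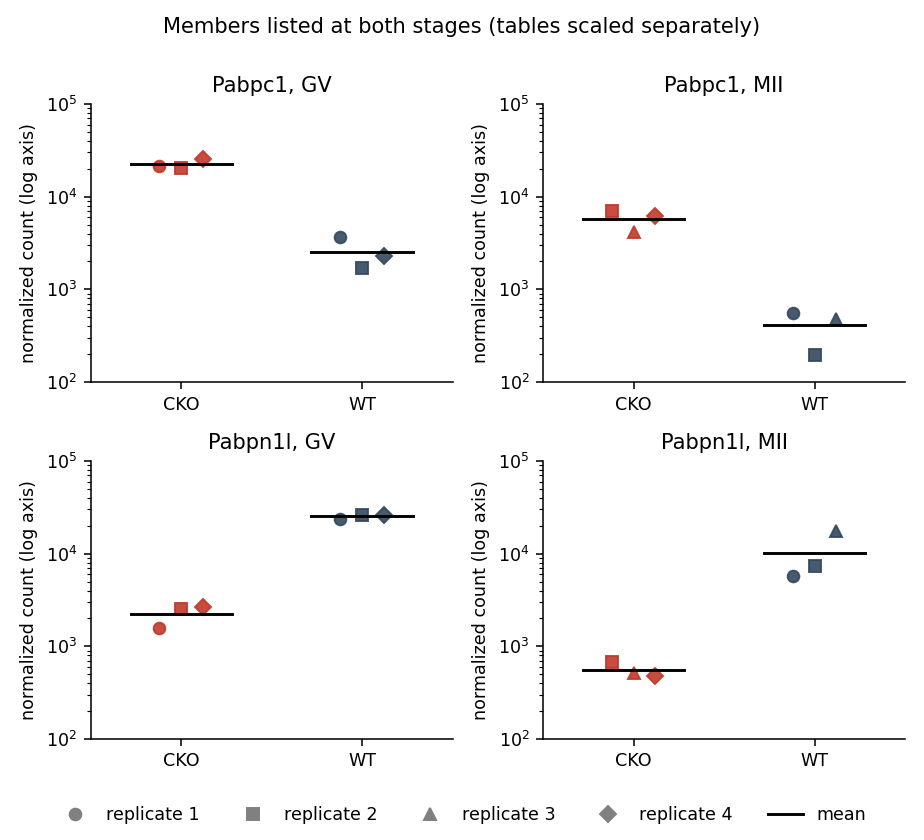
Normalized counts (log axis) of Pabpc1 and Pabpn1l in each GV and MII library, CKO in red and WT in dark blue, with symbols for replicate numbers and bars for means of 3. The genotypes do not overlap in any panel; levels are not comparable between stages because each table was scaled separately.

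Both genes kept their direction from stage to stage. For Pabpc1 the authors' deposited table gave log2 fold changes of 3.13 at GV and 3.81 at MII, and for Pabpn1l -3.51 at GV and -4.20 at MII. The stages sit in separately scaled tables with no shared libraries, so the difference between stages was not tested.

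Pabpc1l, the oocyte form of the cytoplasmic protein (chromosome 2, 164025450 to 164050538, plus strand), did not pass the test at MII. It was at 43552, 33990 and 27639 normalized counts in CKO replicates 2, 3 and 4, against 39922, 32787 and 11162 in WT replicates 1, 2 and 3. The genotypes overlapped, and the low WT value was that of replicate 3. Limma gave a log2 difference of 0.50 (95% interval -0.54 to 1.53, adjusted p = 0.628), and -0.07 (95% interval -0.75 to 0.61) without that library. These intervals do not reach the difference estimated for Pabpc1.

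Pabpc4, the other cytoplasmic form (chromosome 4, 123262351 to 123298925, plus strand), was at 8382, 6699 and 9099 normalized counts in CKO replicates 2, 3 and 4, against 5765, 4959 and 5069 in WT replicates 1, 2 and 3. Its libraries did not overlap and its spread was the narrowest of the 8 genes in WT, at 8.30% of the mean. Its estimated log2 difference by limma was 0.61 (95% interval 0.01 to 1.20), with an adjusted p of 0.304. With array weights, under which limma weighted WT replicate 3 at 0.198, WT replicate 2 at 4.37 and the other 4 libraries at 0.902 to 1.18, it was 0.64 with an adjusted p of 0.0450, in a fit that called 15.6% of all genes. Counting the reads of its near copies with it, an alternative added after the data were seen, gave 0.59.

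The within-library ratio of Pabpc1 to Pabpc1l reads does not depend on scaling between libraries. Its log2 value was -2.64, -3.02 and -2.15 in CKO replicates 2, 3 and 4, against -6.15, -7.38 and -4.53 in WT replicates 1, 2 and 3. Each CKO library lay above each WT library, and WT replicate 3 was the nearest of them to CKO. The difference of the means was 3.42 (SE 0.86), or 10.7-fold, and 4.16 without WT replicate 3 (exact two-sided permutation p = 0.1, the smallest possible). Gene length cancels in this difference.

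Per kilobase of principal transcript, Pabpc1 made up 10.4%, 8.18% and 13.0% of the summed level of Pabpc1, Pabpc1l and Pabpc4 in CKO replicates 2, 3 and 4, against 1.04%, 0.445% and 2.60% in WT replicates 1, 2 and 3. The groups did not overlap. Pabpc1l remained the main component, at 75.6 ± 5.56% in CKO and 83.3 ± 9.85% in WT (SD, n = 3 each), and its shares overlapped between the genotypes only through WT replicate 3, without which the WT mean was 89.0%. The mean Pabpc1 share was 10.5% in CKO and 1.36% in WT, or 0.745% in WT without WT replicate 3. With merged exon lengths in place of transcript lengths, the Pabpc1 share averaged 5.67% in CKO and 0.706% in WT, or 0.378% in WT without WT replicate 3.

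**Figure D3:**
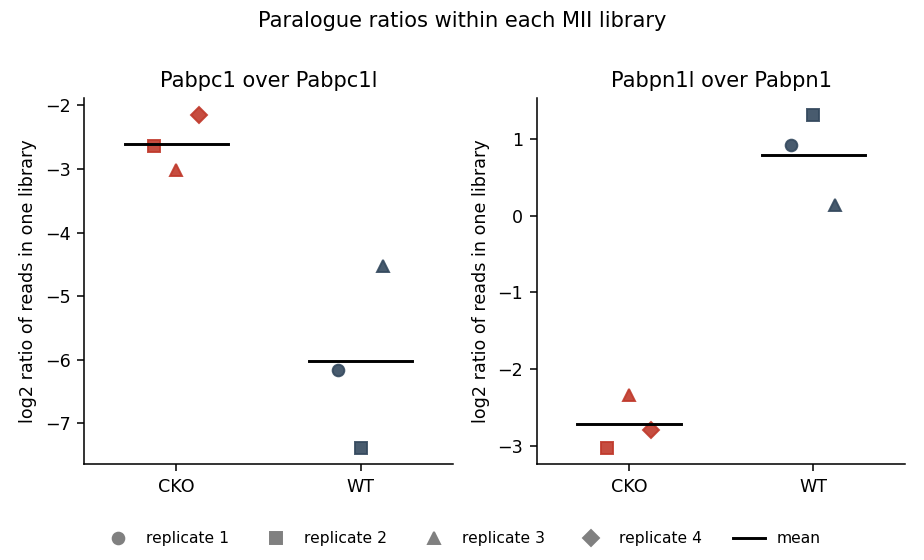
Log2 ratio of reads of each pair of related genes within each MII library, CKO in red and WT in dark blue, with bars for means of 3. Pabpc1 over Pabpc1l averages -2.61 in CKO and -6.02 in WT, and Pabpn1l over Pabpn1 averages -2.72 in CKO and 0.79 in WT, with no overlap in either panel.

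Pabpn1, the nuclear poly(A)-binding protein gene (chromosome 14, 54892500 to 54898169, plus strand), was at 5487, 2570 and 3362 normalized counts in CKO replicates 2, 3 and 4, against 3043, 2958 and 15873 in WT replicates 1, 2 and 3. A single high library, WT replicate 3, was 5.29 times the mean of the other WT libraries and set the WT mean. By limma the log2 difference was -0.53 (95% interval -1.89 to 0.83, adjusted p = 0.641), and 0.27 (95% interval -0.68 to 1.22) without that library, so its direction turned. The log2 ratio of Pabpn1l to Pabpn1 reads within a library, compared after the values were seen, was -3.03, -2.34 and -2.80 in CKO replicates 2, 3 and 4, against 0.92, 1.31 and 0.14 in WT replicates 1, 2 and 3. The groups did not overlap and the means differed by -3.51 (SE 0.40, exact two-sided permutation p = 0.1, the smallest possible), and by -3.84 without WT replicate 3. WT replicate 3 was high for both genes, and its ratio was the lowest of the WT libraries.

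Among the interactors, Paip1, the translational stimulator (chromosome 13, 119428601 to 119458218, plus strand), was at 5269, 6608 and 6364 normalized counts in CKO replicates 2, 3 and 4, against 5450, 5932 and 7575 in WT replicates 1, 2 and 3. The genotypes overlapped closely. Limma put the log2 difference at -0.05 (95% interval -0.66 to 0.56, adjusted p = 0.938), and 0.09 without WT replicate 3.

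Paip2, the repressor (chromosome 18, 35598617 to 35617187, plus strand), was at 11880, 11328 and 15912 normalized counts in CKO replicates 2, 3 and 4, against 8424, 7535 and 2375 in WT replicates 1, 2 and 3. Every CKO library was above every WT library, but the lowest WT value came from replicate 3. The limma log2 difference was 1.28 (95% interval 0.25 to 2.30, adjusted p = 0.209), and 0.69 (95% interval 0.17 to 1.22, adjusted p = 0.148) without it. The authors' deposited table marked the gene as up from an unadjusted p of 0.031 with a log2 fold change of 1.09, and its adjusted p was 0.155. Neither adjusted value passed 0.05.

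Paip2b, its paralogue (chromosome 6, 83805401 to 83831741, minus strand), was at 6905, 7147 and 10771 normalized counts in CKO replicates 2, 3 and 4, against 4499, 4349 and 8532 in WT replicates 1, 2 and 3. Only CKO replicate 4 exceeded all WT libraries. For this gene limma gave a log2 difference of 0.56 (95% interval -0.22 to 1.33, adjusted p = 0.463), 0.87 without WT replicate 3 (adjusted p = 0.139), and 0.82 with array weights (adjusted p = 0.0287). WT replicate 3 was thus low for Paip2 and high for Paip2b.

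**Figure D4:**
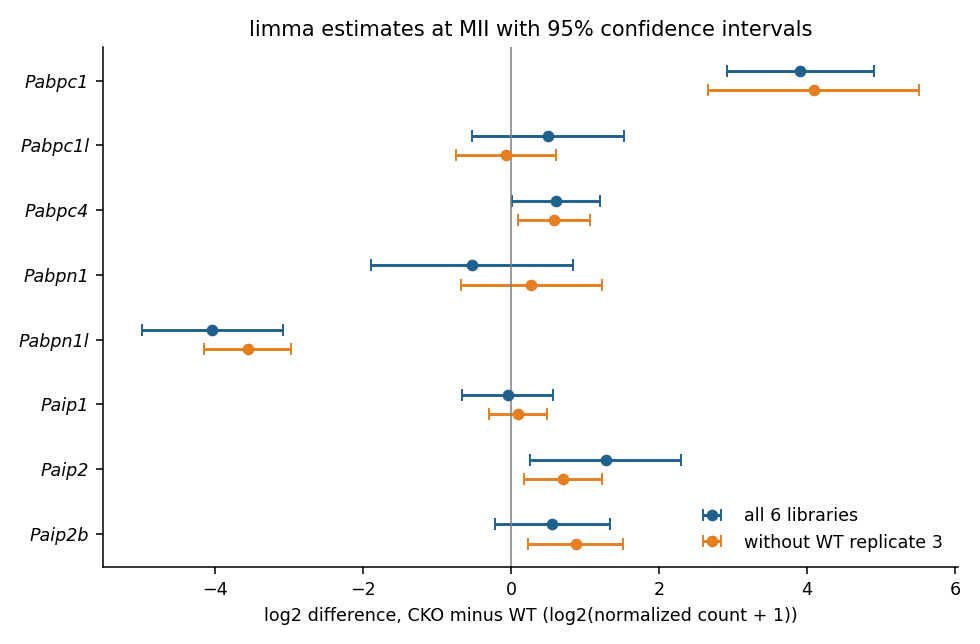
Limma log2 differences at MII (CKO minus WT, on log2(normalized count + 1)) with 95% confidence intervals for the 8 genes, from all 6 libraries and without WT replicate 3. The Pabpc1 and Pabpn1l intervals lie far from 0 in both fits, and the estimates of Pabpc1l, Pabpn1 and Paip1 change sign between them.

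Ordered by level per kilobase of principal transcript at MII, Pabpc1l was the highest of the 8 genes in both genotypes, at 14894 ± 3403 normalized counts per kilobase in CKO and 11876 ± 6362 in WT (SD, n = 3 each). Pabpn1l was the lowest in CKO at 483 ± 89.0 and second in WT at 8890 ± 5557. Pabpc1 was seventh in CKO at 2057 ± 514 and the lowest in WT at 147 ± 68.2. These places did not change with merged exon lengths or without WT replicate 3, although the WT mean of Pabpn1l was then 5707, and that of Pabpn1 was 2913 without that library and 7079 with it. In CKO, the ranges over libraries of Pabpc1 (1485 to 2478), Paip2b (1734 to 2705), Paip1 (2065 to 2590), Pabpc4 (2219 to 3014) and Pabpn1 (2495 to 5327) each overlapped that of the next in order. Paip2, at 7680 to 10788 in CKO, lay above all of these and below Pabpc1l, whose range was 11741 to 18501. In WT, the ranges of Pabpc1l, Pabpn1l and Pabpn1 overlapped, while Pabpc1, at 69.7 to 199, lay below the range of every other gene of the 8. Pabpc4, at 1643 to 1909, lay below Paip1, at 2137 to 2969, and overlapped Paip2 and Paip2b. Most of these overlaps came from WT replicate 3. Without it, the WT ranges of Pabpc1l (13928 to 16959), Pabpn1 (2872 to 2954), Paip1 (2137 to 2325), Pabpc4 (1643 to 1909) and Paip2b (1092 to 1130) overlapped no other gene of the 8, and only Pabpn1l (5008 to 6407) and Paip2 (5108 to 5711) overlapped. The annotated Pabpn1 transcript is 1030 bases against merged exons of 3035 bases, so its place is the least certain.

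The genes whose pattern over the 6 MII libraries was nearest to Pabpc1 were Fam174b, Cd9, the egg tetraspanin of gamete fusion, and Syt14, with root mean square differences of centred log2 values of 0.37, 0.52 and 0.54, against a median of 2.11 over 9279 genes. Nearest to Pabpn1l were Tfap2c, a transcription factor gene, Tmem9 and Tmem9b, at 0.33, 0.39 and 0.42, against a median of 2.15. Nearest to Pabpc1l were Mast3, Smap1 and Rfx1, at 0.07, 0.09 and 0.10, against a median of 0.88. The limma log2 differences were 3.41 to 4.19 for the first 3 genes, -4.18 to -3.50 for the next 3 and 0.34 to 0.58 for the last 3. All were picked for closeness over these same 6 libraries. Small distances and genotype differences like those of the members therefore follow from the choice.

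The wider poly(A) machinery was read from lists of 86 partner genes, of which 81 were tested at MII and limma called 3, or 3.70%, beside 1.51% of all genes. Of 7 other poly(A)-binding protein genes, 4 were tested and none was called by limma, with none at an unadjusted p under 0.05 and none called by limma-voom. Pabpc6 was at 28.9, 20.3 and 5.51 normalized counts in CKO replicates 2, 3 and 4, against 210.4, 44.3 and 0 in WT replicates 1, 2 and 3. Zc3h14, a nuclear zinc finger poly(A)-binding protein gene, was at 2332, 4183 and 3528 normalized counts in CKO replicates 2, 3 and 4, against 3290, 3051 and 3132 in WT replicates 1, 2 and 3. Its libraries overlapped, with a limma log2 difference of 0.04 (adjusted p = 0.952). At GV, Pabpc2 had 0 reads in all 3 CKO libraries and 40, 20 and 0 in WT replicates 1, 2 and 4, and its adjusted p in the authors' deposited table was 0.092.

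Among 16 cap-binding and initiation factor partners, limma called 1 higher and none lower at MII, and none was called at GV. An unadjusted p under 0.05 was found for 4 of the 16, beside 16% of all genes. The gene was Eif4h, a cofactor of the initiation helicase, at 2839, 2008 and 4127 normalized counts in CKO replicates 2, 3 and 4, against 311, 455 and 794 in WT replicates 1, 2 and 3. The groups did not overlap, and limma estimated a log2 difference of 2.57 (SE 0.44, adjusted p = 0.0272). Of 19 other partners of poly(A)-binding proteins, limma called none at MII, with 5 at an unadjusted p under 0.05 and none called by limma-voom. From this list Atxn2, the ataxin-2 gene, was called lower at GV. Atxn2 averaged 12345 ± 1359 normalized counts in CKO and 29110 ± 8169 in WT at GV (SD, n = 3 each), and the authors' deposited table gave -1.24 for its log2 fold change. At MII it averaged 7877 ± 641 in CKO and 18631 ± 7939 in WT (SD, n = 3 each), and limma gave an adjusted p of 0.164.

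Among poly(A) tail synthesis genes, 1 rose and 1 fell at MII. Of 24 tested at MII, limma called Cstf2 higher and Tent4b lower (8.33%, beside 1.51% of all genes), and 22 did not pass. An unadjusted p under 0.05 was found for 8 of the 24, beside 16% of all genes. Cstf2, an RNA-binding subunit of the cleavage stimulation factor, was at 2496, 3360 and 3464 normalized counts in CKO replicates 2, 3 and 4, against 1033, 1193 and 945 in WT replicates 1, 2 and 3. It was higher in all CKO libraries and its limma log2 difference was 1.55 (SE 0.31, adjusted p = 0.0429). The authors' deposited table also called it at GV, with a log2 fold change of 1.13. Tent4b, a noncanonical poly(A) polymerase, was at 2024, 1762 and 2135 in CKO replicates 2, 3 and 4, against 5001, 5925 and 5537 in WT replicates 1, 2 and 3. It was lower in all CKO libraries, with a limma log2 difference of -1.48 (SE 0.27, adjusted p = 0.0336). Limma-voom called neither.

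Pabpc1 belongs to the terminal oligopyrimidine (TOP) mRNAs, whose translation is controlled through a pyrimidine tract at the cap. Of 19 other TOP mRNAs tested at MII, leaving out ribosomal proteins, limma and limma-voom called none. An unadjusted p under 0.05 was found for 3 of the 19, beside 16% of all genes. Their log2 differences were -1.91 to 2.11 with a median of 0.28. At GV, 2 of the 20 genes of this list were called higher and none lower in the authors' deposited table, which called 4.96% of all genes higher. Eef1a1, the translation elongation factor gene, averaged 166493 ± 11677 normalized counts in CKO and 82874 ± 9310 in WT at GV, and Eef1g, a further elongation factor subunit gene, 6101 ± 321 in CKO and 2550 ± 517 in WT (SD, n = 3 each). Their log2 fold changes in the authors' deposited table were 1.01 and 1.26, below the 3.13 of Pabpc1. At MII, every CKO library again lay above every WT library for Eef1a1 and Eef1g, as for 10.4% of all genes tested, although limma called neither. These 2 were named because they were called at GV, and they do not stand for the rest of the list. Eef1a1 averaged 69598.5 normalized counts in CKO and 35751.9 in WT at MII, with a limma log2 difference of 0.998 (adjusted p = 0.176). Eef1g averaged 220 in CKO and 102 in WT at MII, with a limma log2 difference of 1.19 (adjusted p = 0.390).

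**Figure D5:**
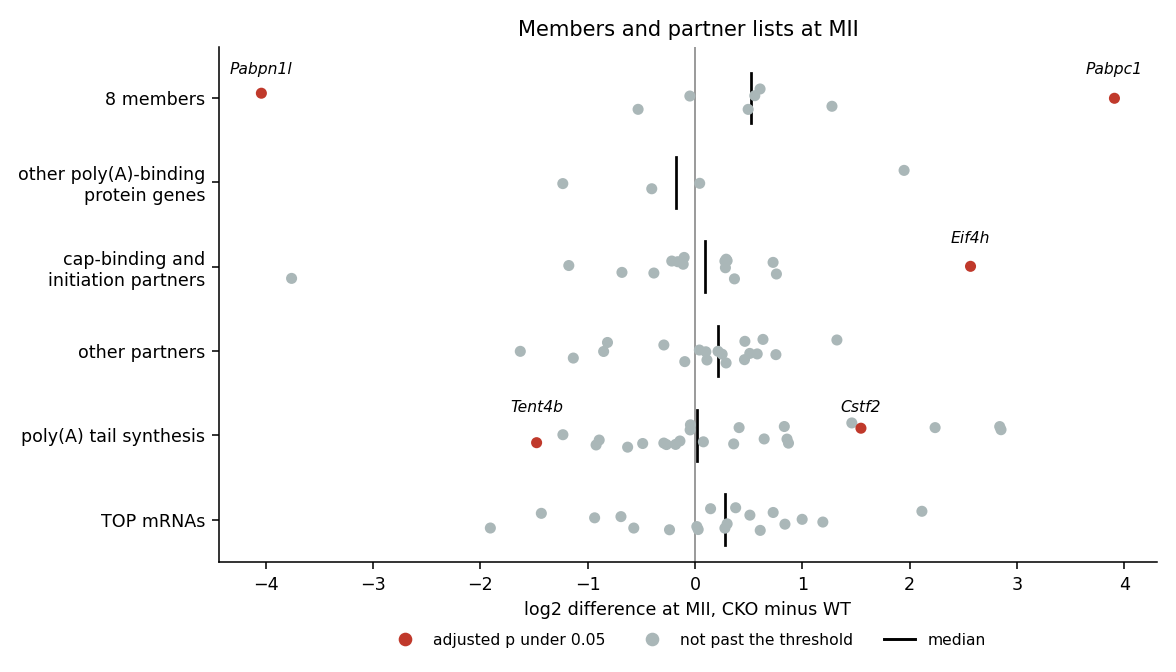
Limma log2 differences at MII (CKO minus WT) of the 8 genes and of each partner list, 1 point per gene, with genes past an adjusted p of 0.05 in red and named and a bar at each list's median. Pabpc1 and Pabpn1l lie furthest out, and Eif4h, Cstf2 and Tent4b are the 3 partner genes called.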

How the data were processed

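RNA-seq values of 12 oocyte libraries were used, in one table per stage. The deposited value of a gene in a library is the log10 of its normalized count plus 1. Beside it the authors deposited a mean signal, a log2 fold change with its SE, a test score and, for each gene, a raw and an adjusted p-value, per the file headers. No source used here gives the aligner, build, annotation or counting tool. Undoing the log10 step gave the deposited means back (largest relative difference 1.43e-14). All values (100%) were whole multiples of 1 read, within 0.05, so reads were recovered.

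For MII, log2(normalized count + 1) of the 6 libraries was modelled by genotype using limma 3.58.1 (R 4.3.3, trended prior variance) over 20388 genes with a mean of at least 1. p-values were Benjamini-Hochberg adjusted over all of them. Fold changes on this scale understate those of low genes. For GV no model was fitted, because that table holds selected genes. The code was tested on simulated data. Alternatives were a pseudocount of 0.1, no filter, library size alone, quantile normalization, limma-voom on recovered reads, array weights, a replicate block and each library left out. No label says that replicates came from separate animals, so p-values measure the spread between these libraries.

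The 8 genes, the lists and the rules were chosen with earlier results of these data known. Beside the 8, the text names list genes that were called, at most 6 per list by smallest p, and the 3 genes nearest in pattern with a mean of at least 100, leaving out predicted models and pseudogenes. Other genes named, Pabpc2, Pabpc6, Zc3h14 and single markers among them, were chosen after their values were seen. Sequences are from GENCODE M21, which may not be the authors' annotation. Principal transcripts were chosen by APPRIS rank, support level and length. A comparison of the first coding bases is not reported here.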

Additional observations from a re-analysis of the deposited data

How the results depend on the processing

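Limma called 308 genes at MII. It called 222 with a pseudocount of 0.1, 247 without a filter, 254 with library size alone, 303 with quantile normalization, 171 with limma-voom and 3190 with array weights, where 4 of the 8 genes were called. Leaving out each library in turn gave 0 to 890 genes and 0 to 2 of the 8, and 890 came from leaving out WT replicate 3. Under array weights Pabpc4 (0.64) and Paip2b (0.82) passed, and the estimates of Pabpn1 (0.22) and Paip1 (0.028) turned sign. Without WT replicate 3 those of Pabpc1l (-0.070), Pabpn1 (0.27) and Paip1 (0.090) turned, and without CKO replicate 2 that of Paip1 (0.05). The cause was not tested. Over the left-out libraries, log2 differences were 3.44 to 4.20 for Pabpc1, -4.37 to -3.56 for Pabpn1l, -0.07 to 0.85 for Pabpc1l, -0.94 to 0.27 for Pabpn1 and -0.15 to 0.09 for Paip1.

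With a replicate block limma called 0 genes and 0 of the 8 (1496 genes at an unadjusted p under 0.05), with Pabpc1 at 4.13 and Pabpn1l at -4.28 (adjusted p = 0.587 for both). Only numbers 2 and 3 are shared at MII. Deviations of same-numbered libraries from their group means correlated at 0.01 and -0.10 at MII and at -0.01 to 0.02 at GV, so the numbers were not taken to pair libraries. Adding the reads of near copies gave 308 genes. This, the merged exon lengths and the levels per kilobase without WT replicate 3 were chosen after seeing the data. Pabpc1 and Pabpn1l kept their direction in all 14 alternatives at MII and all 8 at GV. Because their libraries did not overlap between genotypes, leaving out a library could not turn the direction at either stage. At GV the replicate block equals the main estimate by arithmetic, so no other outcome was possible there. The median log2 difference over all genes was -0.11, against -0.002 with quantile normalization and 0.02 with limma-voom, and no gene of the 8 changed sign under either.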
